A study of Mus musculus with 2 samples.

Results

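Blood group antigens are carried on the red cell surface by transporters, channels, adhesion molecules and enzymes, and the genes of 8 such proteins were followed here: Kel, Slc14a1, Ermap, Icam4, Gypc, Rhag, Rhd and Aqp1. They were chosen by their symbols, as all probesets that the probe annotation of the array names with one of these symbols alone. This gave 95 of 270105 probesets that carry 1 symbol, and 8 of 21947 named genes.

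The samples were mouse cells of the Bry-GFP embryonic stem cell line, in which GFP reports the activity of Brachyury, a gene of mesoderm. FLK1-positive mesoderm cells were isolated from embryoid bodies on day 3 and cultured with the solvent DMSO, as the control, or with 300 nM of compound B, an inhibitor of the histone demethylase LSD1. The CD41-positive cells of each culture were sorted on culture day 2, and their total RNA was measured on an Affymetrix array. The labels call these cells hemogenic endothelium, the endothelium from which blood cells bud. There was 1 array for each condition, from 1 cell line, so that no test between the conditions was possible and all differences describe these 2 arrays. The comparison asks which transcripts differ when LSD1 is inhibited while blood cells emerge.

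The human counterparts of these genes define blood group systems. KEL is the Kell antigen carrier, SLC14A1 the Kidd, ERMAP the Scianna, ICAM4 the Landsteiner-Wiener, GYPC the Gerbich, RHD the Rh and AQP1 the Colton carrier, and RHAG is the partner that Rh proteins need to reach the membrane. In the mature red cell, Rh proteins, RHAG and ICAM4 sit near the anion exchanger band 3, which ankyrin ties to the spectrin skeleton. GYPC and the KEL-XK pair are placed at the junctional complex, where protein 4.1 joins spectrin to actin. Many red cell genes are driven by the transcription factor GATA1, which binds GATA letters, and by KLF1, which binds CACC letters.

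The RefSeq promoter table matched 6 of the 8 genes, and Gypc and Slc14a1 were not matched. The promoters are shown because 5 of the 6 belong to genes with a difference below 0, of which Kel alone passed the size rule given further on, and 1, that of Aqp1, to the gene whose difference was not below 0. Each line gives the 250 bases before the RefSeq start site in assembly GRCm38.p6, written 5′ to 3′ on the strand of the gene. Capitals mark matches on either strand. The GATA letters searched were AGATAA and also TGATAA. The CACC letters of KLF1 were searched as CCNCNCCC, where N is any base. AATCAC, the core of the letters that Gfi1 binds, was searched as well.
Kel, chr6:41704326-41704575, minus strand: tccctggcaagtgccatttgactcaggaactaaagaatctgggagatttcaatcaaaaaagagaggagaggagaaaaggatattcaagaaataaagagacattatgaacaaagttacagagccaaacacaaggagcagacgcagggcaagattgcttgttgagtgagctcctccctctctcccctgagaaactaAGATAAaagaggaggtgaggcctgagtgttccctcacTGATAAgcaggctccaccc
Ermap, chr4:119189996-119190245, minus strand: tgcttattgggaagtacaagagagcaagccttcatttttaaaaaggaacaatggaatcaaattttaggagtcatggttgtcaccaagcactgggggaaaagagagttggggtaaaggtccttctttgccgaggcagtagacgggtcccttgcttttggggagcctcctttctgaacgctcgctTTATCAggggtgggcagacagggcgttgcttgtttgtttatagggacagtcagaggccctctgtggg
Icam4, chr9:21029182-21029431, plus strand: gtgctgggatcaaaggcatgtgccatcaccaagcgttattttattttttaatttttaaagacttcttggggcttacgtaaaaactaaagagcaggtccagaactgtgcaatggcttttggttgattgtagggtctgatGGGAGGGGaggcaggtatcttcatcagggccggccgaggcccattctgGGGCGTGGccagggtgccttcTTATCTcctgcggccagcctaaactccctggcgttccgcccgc
Rhag, chr17:40810899-40811148, plus strand: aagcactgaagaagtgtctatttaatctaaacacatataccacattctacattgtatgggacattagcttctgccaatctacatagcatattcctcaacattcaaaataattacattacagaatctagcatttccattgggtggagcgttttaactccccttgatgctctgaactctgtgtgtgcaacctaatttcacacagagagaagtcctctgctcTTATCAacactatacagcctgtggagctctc
Rhd, chr4:134864286-134864535, plus strand: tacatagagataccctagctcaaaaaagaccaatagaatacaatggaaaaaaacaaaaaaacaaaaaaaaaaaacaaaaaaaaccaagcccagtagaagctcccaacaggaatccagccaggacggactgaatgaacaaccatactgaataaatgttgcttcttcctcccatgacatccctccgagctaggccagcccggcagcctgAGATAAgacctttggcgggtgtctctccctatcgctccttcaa
Aqp1, chr6:55336049-55336298, plus strand: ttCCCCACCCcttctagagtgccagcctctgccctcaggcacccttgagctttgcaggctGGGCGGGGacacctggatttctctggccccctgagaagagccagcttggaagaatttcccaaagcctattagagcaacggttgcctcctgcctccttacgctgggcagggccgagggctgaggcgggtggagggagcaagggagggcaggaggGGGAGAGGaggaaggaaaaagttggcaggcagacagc

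One or both of the GATA motifs lay in 5 of these 6 promoters, the exception being Aqp1. Across 32851 mouse promoters of the same length in the table, 16.6% hold either motif. Counted once per gene over the measured genes in that table, the share was 12.3% of 11978. With position -1 as the base just before the start site, Kel had AGATAA at -56 to -51 and TGATAA at -19 to -14. Rhd had AGATAA at -43 to -38, and Icam4 had the same letters at the same place on the opposite strand. The matches in Ermap at -67 to -62 and in Rhag at -31 to -26 were TGATAA on the opposite strand. None of these matches lay farther from the start site than -67. CCNCNCCC, which 45.9% of all promoters hold, was found in 2 of the 6, with 3 matches in Aqp1 and 2 in Icam4. AATCAC, found in 9.14% of all promoters, was in none of the 6. No match of one motif overlapped a match of another here. A match describes the letters and is no evidence of binding, and a missing match says only that the letters are not in this window.

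A probeset is a small group of probes to one stretch of a transcript, and its value is read as log2 intensity. A probeset was called bright if the higher of its 2 values reached 3.17, the median over the whole table. The level of a gene in an array is the median of its bright probesets there, and its difference is the median of the probeset differences, inhibitor minus control, and therefore can depart from the gap between its levels. The SD beside a difference describes how the probesets of one gene vary and is no replicate error. A gene was measured with at least 4 bright probesets, as all 8 genes and 15087 genes in all were. The size rule asked for a difference of 1 or more on the log2 scale, a 2-fold change, shared in direction by 75% or more of the bright probesets.

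Of the 8 blood group genes, 7 had a difference below 0, against 40.9% of all measured genes. By the size rule, 2 were lower in the inhibitor array, Slc14a1 and Kel, where 0.563% of all measured genes were lower. None of the 8 was higher by this rule, and 1.72% of all measured genes were. The median difference of the 8 genes was -1.01, and that of all measured genes was 0.06, with the central 90% of genes between -0.50 and 0.68. Among the 72 bright probesets of the 8 genes, 60 were lower in the inhibitor array, which is 83.3%, compared with 45% of all bright probesets of measured genes. A probeset that was bright in one array alone had to be lower in the other, and 16 of the 72 were bright in the DMSO array alone and 3 in the inhibitor array alone. Of the 53 that were bright in both arrays, 44 were lower (83.0%), compared with 44.7% of such probesets of all measured genes. Probesets of one gene share its transcripts and are not independent. The other 23 probesets of the 8 genes were dim in both arrays, and their median difference was -0.23. In sorted bulk cells, fewer red cell precursors and less of a transcript per cell cannot be told apart.

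**Figure D1:**
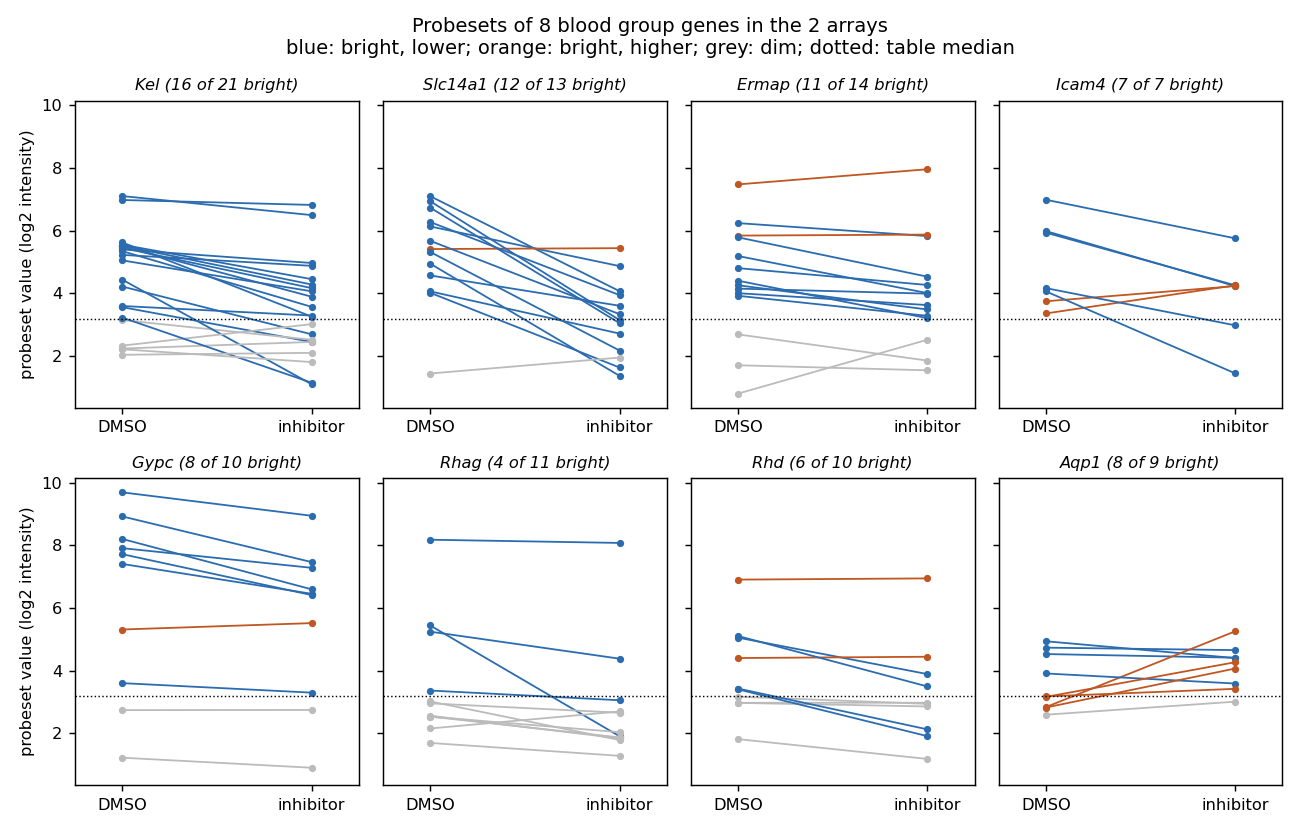
Probeset values of the 8 genes on the log2 intensity scale, 1 panel per gene, with a line from the DMSO array to the inhibitor array for each probeset; blue lines are bright probesets that are lower, orange lines bright probesets that are higher, grey lines dim probesets, and the dotted line is the table's median of 3.17. Bright probesets of Slc14a1 and Kel slope downward in 11 of 12 and 16 of 16 cases, and those of Aqp1 are divided 4 to 4. Of these Slc14a1 and Kel probesets, 6 and 12 reach the dotted line in the inhibitor array, and the others had to slope downward. Of the bright Aqp1 probesets, 5 reach it in the DMSO array, and the others had to slope upward.

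Slc14a1 encodes the urea transporter of red cells, which carries urea across the membrane as the cell passes through the kidney. Its level was 5.54 in the DMSO array and 3.23 in the inhibitor array, close to the table's median in the latter. This gave a difference of -2.36 (SD 1.22), whose size rests partly on dim inhibitor values and was -1.96 with dim values raised to the table's median. All 12 bright probesets were at or above the table's median in the DMSO array, and 6 were in the inhibitor array. Of these 12 probesets, 11 were lower, and the largest difference was -3.80, for one that went from 6.94 to 3.14. The brightest went from 7.10 to 4.06. A single bright probeset stood apart, with 5.41 and 5.44. Over all 13 probesets, dim ones included, the difference was -2.34, and Slc14a1 passed the size rule under each of the alternative settings run. Slc14a2, the kidney urea transporter gene that follows Slc14a1 on the chromosome and is its closest relative, was at 4.32 and 4.54, with 11 probesets lower and 10 higher and a difference of -0.20. By distance in the 2 levels over the 2 arrays, the measured genes most like Slc14a1 were Chrnb2 (0.41), Acmsd (0.43) and Rhag (0.52), although array levels of different genes also reflect their probes. Their differences were -1.31, -0.36 and -0.59, all nearer to 0 than that of Slc14a1, so they were alike in level and not in difference.

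Kel encodes a zinc endopeptidase of the neprilysin family that is bound to the membrane protein XK by a disulfide bond. It was at 5.37 with DMSO and at 3.97 with the inhibitor. All 16 bright probesets were lower, and the difference of -1.17 (SD 0.85) corresponds to a 2.26-fold lower value. In the inhibitor array 12 of the 16 were at or above the table's median. The others were bright in the DMSO array alone and had to be lower. Over all 21 probesets, dim ones included, 18 were lower and 3 higher. The sizes were uneven across its probesets. The brightest probeset went from 6.98 to 6.82, a difference of -0.16, and the next from 7.10 to 6.49, whereas 9 others were above 5 in the DMSO array and had differences from -2.37 to -0.35. With dim probesets included, the difference over 21 probesets was -0.99, just under the size rule, and with the brighter probesets alone it was -0.85. Xk, the gene of the partner of KEL, went from 5.14 to 4.63, with a difference of -0.89 (SD 0.57) and 8 of 8 probesets lower, without passing the size rule. Among the relatives of KEL, the endothelin-converting enzyme gene Ece1, which is expressed in endothelium, was on the other side, with levels of 6.41 and 7.71 and a difference of 1.08 that passed the size rule. The other 5 relatives did not pass it and lay on both sides of 0: Mme, the neprilysin gene, was at 0.69, Ece2 at 0.36, Phex at 0.10, Mmel1 at -0.11 and Ecel1 at -0.42.

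Rhag, whose product forms the core of the Rh complex and conducts ammonia, was thinly measured. Only 4 of its 11 probesets were bright, and their values in the DMSO and inhibitor arrays were 8.18 and 8.08, 5.24 and 4.38, 5.44 and 1.90, and 3.36 and 3.05. All 4 were lower, but the differences ran from -3.54 to -0.10. All 4 reached the table's median in the DMSO array and 2 did in the inhibitor array. Those that went from 5.44 to 1.90 and from 3.36 to 3.05 therefore had to be lower. The difference of -0.59 (SD 1.59, levels 5.34 and 3.72) did not pass the size rule, and as a mean over the same probesets it was -1.20 and did. Over all 11 probesets, 10 were lower, with a difference of -0.49.

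Rhd encodes the Rh protein itself, and mice carry a single gene of this kind. Its level went from 4.73 to 3.69. The 6 bright probesets fell into separate groups. In 4 of them the inhibitor value was lower, with differences from -1.61 to -1.16. In the others, which include the brightest at 6.90 and 6.94, both arrays were alike, with differences of 0.04. All 6 reached the table's median in the DMSO array and 4 did in the inhibitor array. Those that went from 3.42 to 2.12 and from 3.40 to 1.91 therefore had to be lower. The gene difference was -1.23 (SD 0.76). It was large enough for the size rule but failed on direction, with 66.7% of its bright probesets lower. The value depended on which probesets were used: it was -0.43 over all 10 probesets, -0.24 with dim values raised to the table's median, and 0.04 with the 3 brighter probesets alone. With quantile normalization, with the median gene set to 0 or without its brightest probeset, Rhd passed the size rule. Those calls also counted the probesets that were bright in the DMSO array alone. The Rh relatives of other tissues, Rhbg and Rhcg, differed by -0.20 and -0.54.

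Icam4 encodes an adhesion molecule of red cells and their precursors that binds integrins, among them those of macrophages in erythroblastic islands. Its 7 probesets were all bright. The 3 brightest went from 6.98 to 5.75, from 5.98 to 4.23 and from 5.93 to 4.25. Another pair, going from 4.16 to 2.97 and from 4.06 to 1.44, was bright in the DMSO array alone and so had to be lower. The last pair was higher, going from 3.74 to 4.22 and from 3.35 to 4.25. The median level was therefore nearly the same in both arrays (4.16 and 4.23) although the median probeset difference was -1.23 (SD 1.26). With 5 of 7 probesets lower, which is 71.4%, Icam4 also failed the size rule on direction alone, and with its 4 brighter probesets alone it passed, at -1.46. Icam4 lies between Icam1 and Icam5 on the chromosome, and both neighbours were above 0. Icam1, an adhesion molecule of endothelium and white cells, went from 4.65 to 5.28, with a difference of 1.02 that passed the size rule, and Icam5 was at 0.18. Icam2, another endothelial and platelet member of the family, went from 5.004 to 6.37 with a difference of 0.80.

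Gypc encodes glycophorin C, a sialoglycoprotein whose tail binds protein 4.1. Its level was 7.81 with DMSO and 6.52 with the inhibitor. The 6 brightest of its 8 bright probesets were all lower, with differences from -1.61 to -0.63, and the brightest went from 9.69 to 8.94. The remaining pair, from 5.31 to 5.51 and from 3.60 to 3.29, differed by 0.20 and -0.30. The gene difference of -0.85 (SD 0.61), or 1.80-fold lower, did not pass the size rule, and with the brighter 4 probesets alone it was -1.10 and did.

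Ermap encodes an erythroid membrane protein of the butyrophilin family. It went from 4.80 to 4.002, with 9 of 11 bright probesets lower and a difference of -0.54 (SD 0.55) that did not pass the size rule. Its brightest probeset went the other way, from 7.47 to 7.96. The lower ones included a probeset that went from 5.78 to 4.53 and one from 5.19 to 4.002. Of its butyrophilin relatives, Btn1a1 differed by -0.38 and Btn2a2 by 0.52, and neither passed the size rule.

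Aqp1 encodes the water channel of red cells, which capillary endothelium and kidney tubules express as well. It was the only one of the 8 genes without a difference below 0, at 0.08 (SD 1.01), with levels of 3.54 and 4.33. Its 8 bright probesets were divided. The 3 brightest, at 4.73, 4.94 and 4.53 in the DMSO array, were slightly lower with the inhibitor, at 4.65, 4.40 and 4.41. Another went from 3.91 to 3.59. The other 4 were higher, and they began near or below the table's median, one going from 2.83 to 5.25, another from 2.82 to 4.06 and another from 3.16 to 4.27. Of the 8 bright probesets, all reached the table's median in the inhibitor array and 5 did in the DMSO array. Those that began at 2.83, 2.82 and 3.16 therefore had to be higher. The difference was 0.50 as a mean over the probesets and -0.10 with the brighter ones alone, so no direction can be given for Aqp1. Of the 11 other aquaporin genes measured, none passed the size rule in either direction, and they ran from -0.37 for Aqp7 to 0.72 for Aqp6.

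**Figure D2:**
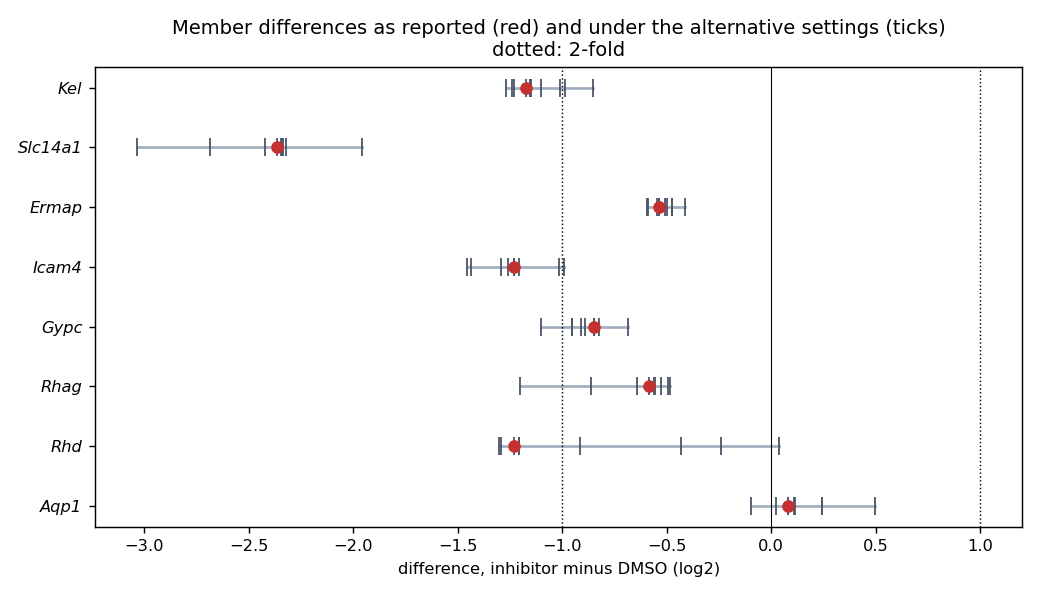
Differences of the 8 genes, inhibitor minus DMSO on the log2 scale, as reported (red points) and under the alternative settings that measured the gene (ticks), with dotted lines at 2-fold. Slc14a1 runs from -3.03 to -1.96, Kel from -1.27 to -0.85, Rhd from -1.30 to 0.04 and Aqp1 from -0.10 to 0.50.

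Other red cell proteins carry further blood group antigens, and 23 of 25 such genes were measured. Of these, 15 were below 0 and 8 above, where 40.9% of all measured genes were below 0, and the median was -0.20. By the size rule 1 was lower, Slc4a1, which encodes band 3, where 0.563% of all measured genes were lower, and 22 were neither. Slc4a1 went from 5.47 to 4.06, with 18 of 18 probesets lower and a difference of -1.15 (SD 1.01). Next were Prnp, the prion protein gene, at -0.98 with 4 of 4 probesets lower, Smim1, the carrier of the Vel antigen, at -0.90, and Xk. Art4, the Dombrock carrier, differed by -0.73 with 4 of 4 probesets lower. The highest differences of this list were those of Slc29a1 and Ackr1. Slc29a1, a nucleoside transporter, went from 5.83 to 7.13 (0.92, 18 of 20 probesets higher), and Ackr1, the Duffy chemokine receptor, which venular endothelium also expresses, from 4.04 to 4.54 (0.91, 3 of 4 probesets higher). Among the other carriers, Cd44 was at -0.38, Cd55 at -0.30 and Cd59a at 0.58, while Bsg, at -0.13, and Cd151, at 0.16, differed little.

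Blood group sugars are made by glycosyltransferases, and 5 of 8 listed genes were measured. Gbgt1, the Forssman synthase gene, was lower by the size rule, as were 0.563% of all measured genes. Its levels were 3.87 and 2.60, the latter below the table's median. The difference was -1.28 (SD 1.52), with 3 of 4 probesets lower. Some of these were therefore bright in the DMSO array alone and had to be lower. The other 4 genes did not pass the rule: Gcnt2, which builds the branched I antigen, differed by 0.70, B3galnt1 by 0.47, B4galnt2 by 0.44 and A4galt by -0.10. The relatives of the 8 genes by sequence family, 25 of 26 measured, had a median of 0.06, the same as all measured genes. By the size rule none was lower, where 0.563% of all measured genes were. Ece1 and Icam1, 2 of the 25, were higher, where 1.72% of all measured genes were.

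**Figure D3:**
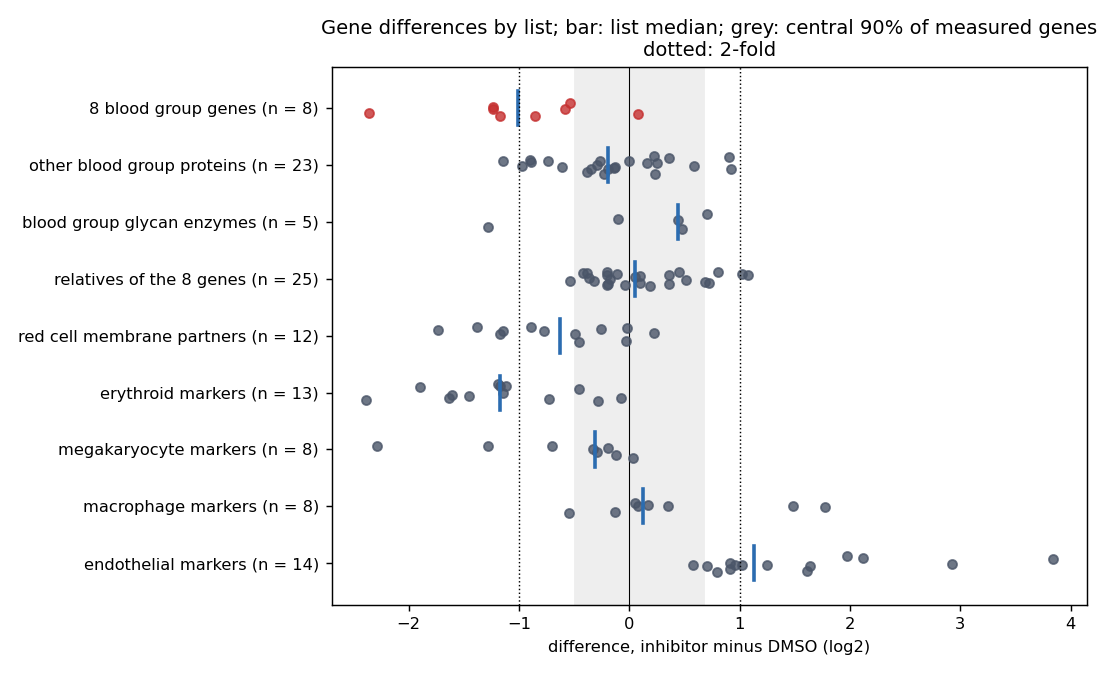
Differences of single genes, inhibitor minus DMSO on the log2 scale, for the 8 blood group genes (red) and 8 other lists (dark points), with a blue bar at each list's median, a grey band for the central 90% of measured genes and dotted lines at 2-fold. The blood group genes have a median of -1.01, the erythroid markers -1.18 and the endothelial markers 1.13.

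The membrane partners of these proteins were lower in part. Of 12 measured genes of the ankyrin and junctional complexes, 11 were below 0, where 40.9% of all measured genes were, with a median of -0.63. By the size rule 4 were lower, where 0.563% of all measured genes were. They were Tmod1, which caps the actin filaments of the skeleton (-1.74), the spectrin gene Sptb (-1.38), Epb42, the gene of protein 4.2 (-1.18), and Slc4a1. The ankyrin gene Ank1 was at -0.77, and Cd47, which joins the Rh complex, was at -0.02 with 7 of 13 probesets lower. Mpp1, a scaffold protein of the junctional complex, was at 0.23. Slc4a1 stands in this list, among the other carriers and among the erythroid markers. Xk also stands among the other carriers, and Epb42 also among the erythroid markers, so these lists are not separate.

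Markers of cell types differed between the arrays as well. Erythroid and most megakaryocyte ones differed in the direction of the blood group genes and endothelial ones in the opposite direction. Of all measured genes, 40.9% were below 0, 0.563% were lower by the size rule and 1.72% were higher by it. All 13 measured erythroid markers of 17 were below 0, and 9 passed the size rule, with a median of -1.18. Their median level was 7.04 in the DMSO array and 6.57 in the inhibitor array, and the erythroid factor genes Klf1 and Gata1 were at -1.12 and -0.73. All 14 measured endothelial markers of 15 were above 0, and 7 passed the size rule, with a median of 1.13 and median levels of 6.10 and 7.34. Of 8 measured megakaryocyte markers of 13, 7 were below 0, with a median of -0.31. By the size rule 2 were lower, Pf4 and Thbs1. These counts equal those of the 8 blood group genes. Of 8 measured macrophage markers of 11, 6 were above 0 and 2 below, with a median of 0.13. By the size rule 2 were higher, Mrc1 and Lyz2. Itga2b, the gene of the sort marker CD41, was at 6.19 and 5.996 (-0.12), and the endothelial marker Cdh5 at 7.89 and 9.84, so RNA of both kinds was present in both arrays. The part of these shifts in the differences of the blood group genes was not tested.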

How the data were processed

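Total RNA of 2 CD41-sorted cultures was measured on 1 array each. The deposited values, 1 for each probeset of an array, were read as log2 intensity because they run from 0.157 to 13.5. How the authors summarised and normalized them, and on which genome build, is not given in the sources used here. At equal rank the values of both arrays are never more than 0.085 apart. With its header the table of 1048575 probesets has 1048576 lines, the row limit of a common spreadsheet, so probesets beyond it were not analysed here. It holds no detection call. The number of arrays limits the precision.

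Gene symbols came from the platform annotation, which names 275842 probesets, 5737 of them with several symbols, which were left out, and were updated through RefSeq synonyms (GRCm38.p6). Values were used as deposited, with Python 3.11.15, numpy 2.4.6 and pandas 2.3.3, and the gene summary was tested on simulated data. The members, lists and rules were chosen with earlier results of these data known. The genes named are the 8 members, the genes of each fixed list other than the cell type markers that passed the size rule or otherwise up to 4 with the largest absolute difference, and the 3 genes nearest to the member with the largest difference; the other genes named, including all relatives, partners, neighbours and single markers beyond that rule, were chosen after their values were seen.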

Additional observations from a re-analysis of the deposited data

How the results depend on the processing

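Under the alternatives that measured them, Kel, Slc14a1, Ermap, Icam4, Gypc and Rhag stayed below 0, Rhd did in 8 of 9, and Aqp1 stayed above 0 in 8 of 9. The median of the 8 genes was -0.59 with no filter on dim probesets, -0.69 with dim values raised to the table's median and -0.67 when only the brighter probesets of a gene were used; with the other settings it lay between -1.10 and -0.96. Of the 8 genes, 1 was lower by the size rule with no filter (Slc14a1, as 0.327% of measured genes were), 4 at a 1.5-fold threshold (2.66%) and 4 without the direction rule (0.623%). It was 2 or 3 in the other settings, of which the one without each gene's brightest probeset was chosen after seeing the data. In these other settings 0.338% to 2.15% of measured genes were lower, the most where 1 bright probeset was enough. The filter at the 75th percentile measured 4 of the 8 genes. None of the 8 was higher by the size rule in any setting, where 1.13% to 5.85% of measured genes were, the most at the 1.5-fold threshold. The cause of these shifts was not tested. No paired analysis was possible because each condition has 1 array.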

Other observations

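Beside the 5 of 6 blood group promoters, either GATA motif was found in the promoters of 7 of 9 erythroid markers with an entry in the promoter table, and of 4 of 21 other blood group proteins. The share was 2 of 9 for the red cell membrane partners, 3 of 20 for the relatives of the 8 genes and 1 of 5 for the megakaryocyte markers. Among genes past the size rule either motif was found in 16 of 64 lower genes (25%) and in 34 of 186 higher genes (18.3%), compared with 12.3% of all measured genes. The lower genes include Kel and erythroid markers that are also counted above. None of the 5 blood group glycan enzymes and none of the 5 macrophage markers held either motif, and 1 of 6 endothelial markers did. These groups were counted after the promoters of the 8 genes had been read, and the counts are given with no test.

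In several of the blood group genes the brightest probeset stood apart from the gene difference. It was at -0.16 in Kel, 0.48 in Ermap, -0.10 in Rhag and 0.04 in Rhd, where the gene differences were -1.17, -0.54, -0.59 and -1.23. In Slc14a1 it was at -3.03 and so further from 0 than the gene. Of the 7 genes with a difference at or below -0.3, 5 had a brightest probeset nearer to 0 than the gene, as did 52.6% of the 1691 measured genes below that limit. With the brightest probeset left out, Rhag was at -0.86 and Rhd at -1.30. What sets these probesets apart was not tested.

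Of 9 measured neighbours of the 8 genes on the chromosomes, 4 were below 0, as were 40.9% of all measured genes. None was lower by the size rule and 1, Icam1, was higher. Their median was 0.06, and they ran from -0.29 for Maco1, beside Rhd, to 1.02 for Icam1.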
